A study of Mus musculus with 12 samples.

Results

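The genes described here encode the proteins of the 2 ribosomes of a mouse cell, the cytosolic ribosome and the mitochondrial ribosome. They were chosen by symbol: Rpl or Rps followed by a number, with Rplp0, Rplp1, Rplp2 and Rpsa, formed the cytosolic class, and symbols beginning with Mrpl or Mrps formed the mitochondrial class. A gene also needed a total of at least 120 estimated reads over the 12 libraries. This gave 157 of the 15802 genes listed in both deposited tables, 79 cytosolic (48 of the large and 31 of the small subunit) and 78 mitochondrial (49 of the large and 29 of the small subunit). All 157 were among the 11707 genes that passed the filter on low counts. Of the cytosolic symbols, Rpl3l with 3 reads and Rpl6l with 13 fell below the minimum.

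The cells were mTEC, a tubular epithelial line from mouse kidney, and mRNA sequencing was done on 4 groups of 3 libraries. Control cells without the cytokine (NC) and cells in which Fh1, the gene of fumarate hydratase, was silenced (KD) form the basal pair. The same kinds of cells given TGF-β1, the main profibrotic cytokine of the kidney, form the second pair (NC+TGF-β1 and KD+TGF-β1). The labels give neither the silencing reagent nor the dose and time of TGF-β1, and are silent on whether a group's 3 libraries are separate cultures. The p-values therefore cover the library-to-library spread, which may be technical. The basal and the TGF-β1 libraries were deposited in separate tables, so that an effect of the cytokine and any difference between the 2 tables cannot be told apart.

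A cytosolic ribosome joins a small subunit, which reads the mRNA, to a large subunit, which forms the peptide bond, and holds its proteins in near equal numbers. Its protein mRNAs are among the most abundant of the cell, and most begin with a cytosine followed by a run of pyrimidines, the 5′ terminal oligopyrimidine (TOP) tract through which mTORC1 signalling controls their translation. Mitochondrial ribosomal proteins are encoded in the nucleus and imported, and their ribosome makes only the few respiratory chain subunits encoded in mitochondrial DNA. In kidney tubules, which depend on mitochondrial respiration, loss of mitochondrial gene expression is a known feature of fibrosis.

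Start sequences are shown for 7 of the genes that changed with TGF-β1, because the TOP tract lies at the transcription start and pyrimidine runs there were more frequent in the cytosolic class. Each is 30 bases before and 30 bases after the RefSeq start in build GRCm38.p6, with capitals for the pyrimidine run of at least 6 bases that comes within 10 bases of the start, where there is one. Rpl38 (chr11:114668550-114668609, plus strand) and Rplp2 (chr7:141447621-141447680, plus strand) were higher with TGF-β1. Rps12 (chr10:23787180-23787239, minus strand) and Rpl6 (chr5:121204471-121204530, plus strand) were lower. Of the mitochondrial genes, Mrpl10 (chr11:97041552-97041611) and Mrps26 (chr2:130563727-130563786) were lower and Mrpl33 (chr5:31613921-31613980) was higher, all 3 on the plus strand.
Rpl38: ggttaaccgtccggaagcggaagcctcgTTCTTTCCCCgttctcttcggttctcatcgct
Rplp2: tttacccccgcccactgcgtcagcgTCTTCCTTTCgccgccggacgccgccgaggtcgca
Rps12: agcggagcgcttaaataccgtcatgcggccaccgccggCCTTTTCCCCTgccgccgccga
Rpl6: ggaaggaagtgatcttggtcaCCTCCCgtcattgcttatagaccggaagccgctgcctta
Mrpl10: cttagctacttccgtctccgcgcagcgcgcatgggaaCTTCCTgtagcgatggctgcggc
Mrps26: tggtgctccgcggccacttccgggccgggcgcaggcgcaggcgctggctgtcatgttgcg
Mrpl33: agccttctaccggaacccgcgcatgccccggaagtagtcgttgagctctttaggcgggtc

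RefSeq windows of 250 bases before to 50 bases after a start were matched for 59 cytosolic and 69 mitochondrial genes. A pyrimidine run of at least 6 bases near the start was present in 62.7% of the cytosolic genes, 34.8% of the mitochondrial genes and 33.9% of the 9373 tested genes with a window. Runs of at least 10 bases were present in 39.0%, 8.7% and 9.03%. The ETS motif CCGGAAG, bound by the nuclear respiratory factor GABPA, was found on either strand in 40.7% of the cytosolic and 37.7% of the mitochondrial windows, against 21.1% of all tested genes. The NRF1 motif GCGCATGCG was in 5.08%, 10.1% and 4.27%, the YY1 motif AAGATGGCG in 5.08%, 11.6% and 3.72%, and the E-box CACGTG, bound by Myc and its partners, in 10.2%, 7.25% and 11.8%. A match describes these letters only.

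Each library held between 17651213 and 18462872 estimated reads. The tubule markers Cdh16, Pax8, Epcam, Krt8 and Krt18 were present throughout, with 75340 to 110456 reads summed over the 16 listed genes. Among the listed markers of tubule segments, Slc34a1, Umod and Slc12a3 had 0 to 2 reads per library and Lrp2 had 0 to 13. Cubn had 76 to 121 reads and Aqp1 201 to 452. Fibroblast genes summed to 11 to 23 reads in basal and 105 to 135 in TGF-β1 libraries, mostly Col1a1, with Lum at 0 in all 12, and endothelial genes to 10 to 21 and 49 to 71, mostly Cdh5. Leukocyte genes summed to 1469 to 1747 reads, nearly all Csf1r, with Ptprc at 0 to 9. The part of these genes' source in the results was not tested. Pluripotent cell genes had 328 reads in KD+TGF-β1 replicate 1 and 0 in every other library. NC replicate 1 stood apart: its chi-square per gene was 7.14 against replicate 2 and 13.35 against replicate 3, while the remaining same-group pairs had 1.67 to 3.53. Fh1 was at 51.4, 53.9 and 53.5 CPM (the count over the library total, scaled by edgeR's TMM factors) in NC and at 28.6, 31.3 and 29.7 in KD. With TGF-β1 it was at 49.6, 49.7 and 49.4 in NC and at 15, 13.7 and 13.8 in KD.

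Levels differed widely among the members of each class. On the per-length TPM scale (the deposited length-scaled unit), the median level over 12 libraries was 2816 for a cytosolic and 70.8 for a mitochondrial member. Cytosolic levels ran from 32.57 TPM for Rpl32l to 10270 TPM for Rpl41, which encodes the shortest protein of the ribosome, with Rps21 at 7783 and Rps18 at 6709. Rps15a at 144.1 and Rpl22 at 154 TPM were the next lowest after Rpl32l. In the mitochondrial class, Mrpl33 at 629 TPM, Mrps21 at 382.1 and Mrpl52 at 299.9 were highest, and Mrps25 at 8.77, Mrpl41 at 10.27 and Mrpl35 at 12.17 were lowest. Proteins held at near equal numbers in 1 particle were thus listed with mRNA levels that spanned a wide range in both classes. Rps15a held 99812 reads over the 12 libraries despite its low TPM. The pseudogenes Rps15a-ps5 and Rpl34-ps1 held 12916 and 28573 reads, and reads shared with such copies are uncertain.

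The members moved little over the 4 groups. The ratio of the highest to the lowest group mean in CPM had a median of 1.13 for the cytosolic and 1.17 for the mitochondrial class, against 1.28 for all 11707 genes tested. It was under 1.25 for 69 of 79 cytosolic and 62 of 78 mitochondrial members, and for 44.8% of all genes tested. Ratios above 1.5 were seen for Rpl32l at 1.76, a low-count gene similar to Rpl32, and for Mrps26 at 1.57, Mrpl13 at 1.51 and Mrpl14 at 1.51. Rpl21 and Rpl10a lay at the other end, with ratios of 1.02 and 1.023, and were picked from the end of this order after their values were seen.

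Summed over the class, cytosolic ribosomal protein mRNA stood at 62958, 66250 and 66149 CPM in NC and at 64600, 63751 and 63356 in KD. With TGF-β1 it stood at 62619, 61136 and 62296 in NC and at 61004, 61874 and 62147 in KD. The TGF-β1 groups lay below their basal counterparts without overlap, by 4.76% in control and 3.49% in silenced cells on the group means. NC replicate 1, at 62958 CPM, lay close to the highest TGF-β1 library at 62619, and without it the control difference was -6.32%. In CPM, KD and NC overlapped, with and without the cytokine. Summed TPM with TGF-β1 differed by -1.8% in KD and narrowly did not overlap, with 243670 in KD+TGF-β1 replicate 3 and 243671 in NC+TGF-β1 replicate 1.

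Mitochondrial ribosomal protein mRNA summed to 3359, 3454 and 3436 CPM in NC and to 3439, 3449 and 3403 in KD. In the TGF-β1 groups it was 3118, 3106 and 3130 in NC and 3097, 3163 and 3140 in KD. The basal and TGF-β1 libraries did not overlap, and the group means differed by -8.74% in control and -8.67% in silenced cells, whereas silencing changed them by 0.406% and 0.486% with overlapping groups. The ratio of the cytosolic to the mitochondrial sum was 19.1 ± 0.276 (SD, n = 3) in NC, 18.6 ± 0.15 in KD, 19.9 ± 0.198 in NC+TGF-β1 and 19.7 ± 0.116 in KD+TGF-β1, again without overlap between basal and TGF-β1 libraries. These CPM are relative to the rest of a library and depend on the TMM scaling. As a plain percent of a library's estimated counts, the cytosolic sum differed with TGF-β1 by -7.12% in control and -7.38% in silenced cells. The mitochondrial sum differed by -11.0% and -12.3%, and no basal and TGF-β1 groups compared overlapped. Less of this mRNA per cell and more of other mRNA cannot be told apart.

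**Figure D1:**
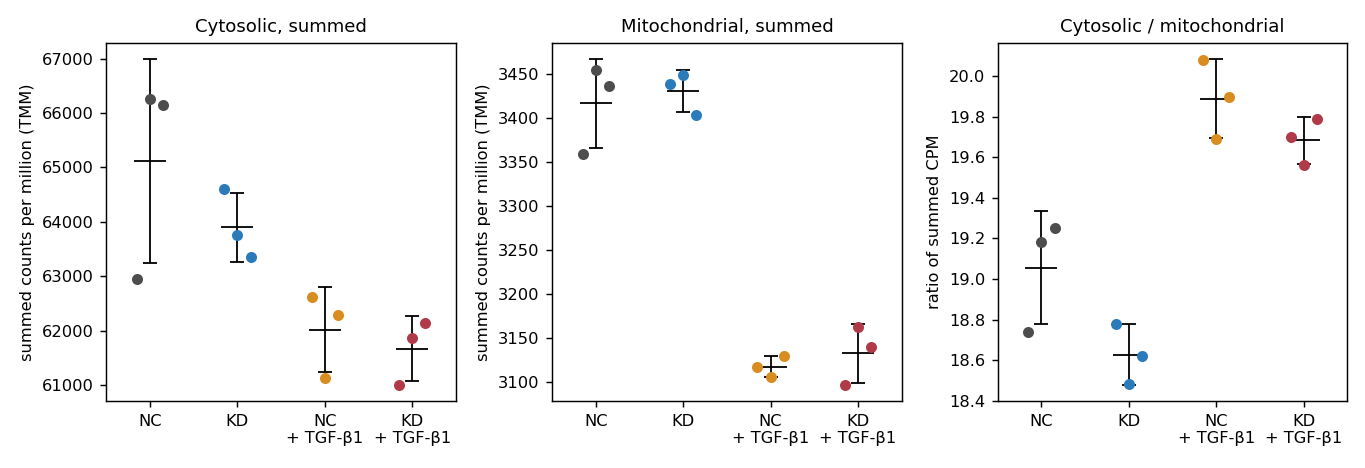
Summed CPM of the 79 cytosolic and 78 mitochondrial ribosomal protein genes, and their ratio, in each library (points) of the 4 groups, with group mean and SD (lines, n = 3); the vertical axes do not start at 0. The mitochondrial sum lies between 3359 and 3454 CPM in the 6 basal libraries and between 3097 and 3163 in the 6 TGF-β1 libraries.

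Silencing of Fh1 in basal cells called few ribosomal protein mRNAs, and few genes of any kind. Fh1 itself stood at 56.4% of its control level in basal cells and at 28.6% with TGF-β1. The part of this difference in the number of calls was not tested. In edgeR's quasi-likelihood test, with p-values adjusted over all 11707 genes, 0 of 79 cytosolic and 1 of 78 mitochondrial members were called at an adjusted p under 0.05. Among all genes tested 3.66% were called, 1.44% higher and 2.22% lower. Without adjustment, 4 cytosolic and 6 mitochondrial members had a p under 0.05, and DESeq2 and limma likewise called 0 and 1. The median log2 change was -0.03 for cytosolic and 0.01 for mitochondrial members, beside -0.01 for all genes (-0.015 before rounding). For 76 of the cytosolic and 74 of the mitochondrial members the 95% confidence interval of the change lay within 1.25-fold in either direction. This held for 8428 of the 11707 genes tested. The fitted change was below 0 for 63 of 79 cytosolic and 33 of 78 mitochondrial members, and for 6554 of all genes.

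With TGF-β1 present, silencing called 1 cytosolic and 3 mitochondrial members, all lower, where 11.4% of all genes were called, 5.42% higher and 6.02% lower. The medians were -0.01 for the cytosolic and 0.01 for the mitochondrial class, and 0.00 (0.002 before rounding) for all genes. The interval lay within 1.25-fold for 75 and 73 members, and for 7950 of the 11707 genes tested. Unadjusted, 10 cytosolic and 11 mitochondrial members had a p under 0.05. The number called depended on the fit: with the spread taken from the 2 TGF-β1 groups alone, 8 cytosolic members were called, all lower, and 6 mitochondrial members, 5 lower and 1 higher. That fit called 16.8% of the 11373 genes it tested, 8.11% higher and 8.64% lower.

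Mrpl13, a protein of the large mitochondrial subunit, was the member that silencing lowered in both settings. It stood at 41.7, 43.7 and 46.1 CPM in NC and at 33.7, 37.0 and 35.2 in KD. In TGF-β1 cells it stood at 36.8, 40.1 and 36.4 in NC and at 29.2, 27.9 and 29.7 in KD. All silenced libraries lay below the controls of the same setting. The log2 change was -0.31 (SE 0.054, edgeR adjusted p = 0.00511) in basal and -0.38 (SE 0.057, adjusted p = 0.000757) in TGF-β1 cells, and these did not differ detectably (interaction -0.07, adjusted p = 0.78). In the fit to the basal libraries alone its adjusted p was 0.0503.

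The 3 other calls were seen with TGF-β1 only, which does not show that they differed between settings: the interaction was not called for any of them. Mrps36 is a member by its symbol, and is known as a component of the 2-oxoglutarate dehydrogenase complex of the citric acid cycle. It was at 16.1, 13.01 and 13.7 CPM in NC+TGF-β1 and at 12.2, 11.3 and 11.4 in KD+TGF-β1. Its log2 change was -0.29 (SE 0.085, edgeR adjusted p = 0.0412), and without NC+TGF-β1 replicate 1, its highest library, it was -0.19 with an adjusted p of 0.167. In basal cells the same gene was at 12.6, 13.7 and 12.7 CPM in NC and 10.8, 11.9 and 11.2 in KD, a log2 change of -0.20 that was not called (adjusted p = 0.239). The groups did not overlap in either setting.

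Mrpl55, of the large mitochondrial subunit, was at 21.1, 19.8 and 22.3 CPM in NC+TGF-β1 and at 17.96, 18.06 and 17.13 in KD+TGF-β1, without overlap. The log2 change was -0.25 (SE 0.062, edgeR adjusted p = 0.0191), against 0.08 in basal cells, and the interaction of -0.33 had an adjusted p of 0.114. Rplp2, an acidic protein of the stalk that recruits elongation factors, was at 617.5, 632.5 and 652.8 CPM in NC+TGF-β1 and at 546.5, 557.7 and 581.1 in KD+TGF-β1. Its change was -0.17 on the log2 scale (SE 0.048, edgeR adjusted p = 0.0302). All 3 calls were lost when some single libraries were left out, with adjusted p-values of up to 0.167 for Mrps36, 0.0812 for Mrpl55 and 0.116 for Rplp2, while both Mrpl13 calls were kept in each such fit.

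**Figure D2:**
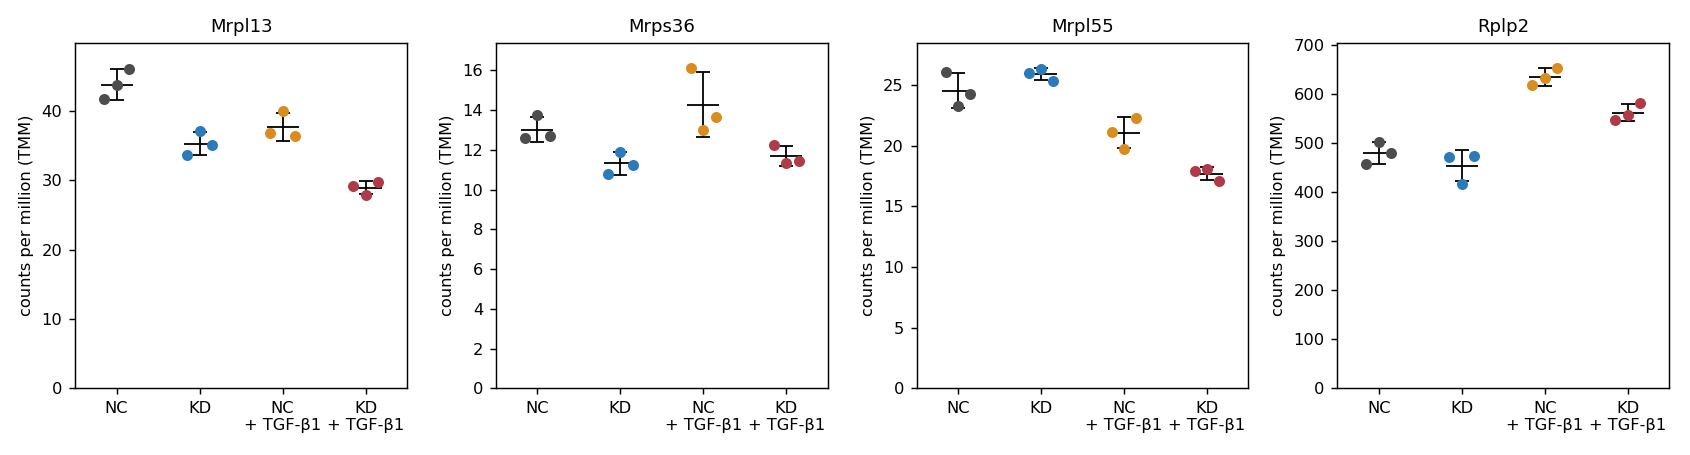
CPM of Mrpl13, Mrps36, Mrpl55 and Rplp2 in each library (points), with group mean and SD (lines, n = 3). Mrpl13 is lower in KD than in NC in both settings, and Rplp2 is higher in all 6 TGF-β1 than in all 6 basal libraries.

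The effect of silencing on a member was not shown to depend on the cytokine. The interaction called 0 cytosolic and 0 mitochondrial members with edgeR, DESeq2 and limma, where edgeR called 0.888% of all genes (0.47% positive, 0.419% negative), and 4 members of each class had an unadjusted p under 0.05. In TGF-β1 cells, shorter members lay lower in silenced cells: effective length and log2 change had a Spearman correlation of 0.388 over the 79 cytosolic and 0.342 over the 78 mitochondrial genes, which share their 6 libraries, against 0.026 over all genes tested. In basal cells the values were 0.129 and 0.017. For the change with TGF-β1 they were -0.241 and -0.047 in control cells, against 0.055 over all genes tested. In silenced cells they were -0.165 and 0.105, against 0.078. Lengths of members were short, with a median of 0.151 of the all-gene median for the cytosolic and 0.298 for the mitochondrial class. Within groups, the correlation of length with deviation from the group mean varied over the cytosolic genes. It was 0.421 in NC replicate 1, -0.42 in NC replicate 2 and -0.301 in KD+TGF-β1 replicate 3, the largest in size of 12 libraries. The other libraries ran from -0.245 (KD replicate 1) to 0.208 (KD replicate 3), with -0.079, 0.067 and 0.008 in NC+TGF-β1. Over the mitochondrial genes it ran from -0.18 in NC replicate 3 to 0.164 in KD replicate 1. The part of length in the calls was not tested.

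TGF-β1 changed far more members, in small steps. In control cells 41 of 79 cytosolic members were called, 15 higher and 26 lower, and 44 of 78 mitochondrial members, 5 higher and 39 lower. Of all genes tested 64.2% were called, 29.4% higher and 34.7% lower. As shares of a class, 19% of cytosolic members were higher and 32.9% lower, and 6.41% of mitochondrial members were higher and 50% lower. The median log2 change was -0.03 (-0.025 before rounding) for the cytosolic and -0.14 for the mitochondrial class, beside -0.03 (-0.032) for all genes. With DESeq2's size factors the cytosolic median was 0.001, on the other side of 0. Among the genes called, 9 of the 41 cytosolic and 9 of the 44 mitochondrial members had changed by over 1.25-fold, against 4452 of the 7511 genes called in all.

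In silenced cells TGF-β1 called 38 cytosolic members, 17 higher and 21 lower, and 42 mitochondrial members, 8 higher and 34 lower, where 65.1% of all genes were called (31.4% higher, 33.7% lower). With limma on log2(TPM + 1) the cytosolic split was 12 higher and 27 lower, beside 30.3% and 33.6% of all genes. The medians were 0.00 (0.003 before rounding) and -0.11, beside -0.01 (-0.014) for all genes. The contrasts in control and in silenced cells share no library. However, both compare basal with TGF-β1 libraries from separate tables, and both come from the same fit. In both contrasts 31 mitochondrial members were called lower and 3 higher, while for the cytosolic class these numbers were 19 and 13. In each class 0 members were called in opposite directions. The number of all genes called alike in both contrasts is not given, so these overlaps cannot be set against a background.

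By subunit, the large mitochondrial subunit had 27 of 49 members lower and 2 higher in control cells, and 24 lower and 4 higher in silenced cells. For the small mitochondrial subunit these were 12 of 29 lower and 3 higher, and 10 lower and 4 higher. In the cytosolic ribosome, the large subunit had 18 of 48 members lower and 7 higher in control cells, then 15 and 8 in silenced cells. Its small subunit was split 8 lower and 8 higher of 31, then 6 and 9. Beside these counts, 34.7% of all genes tested were lower and 29.4% higher in control cells, and 33.7% and 31.4% in silenced cells.

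**Figure D3:**
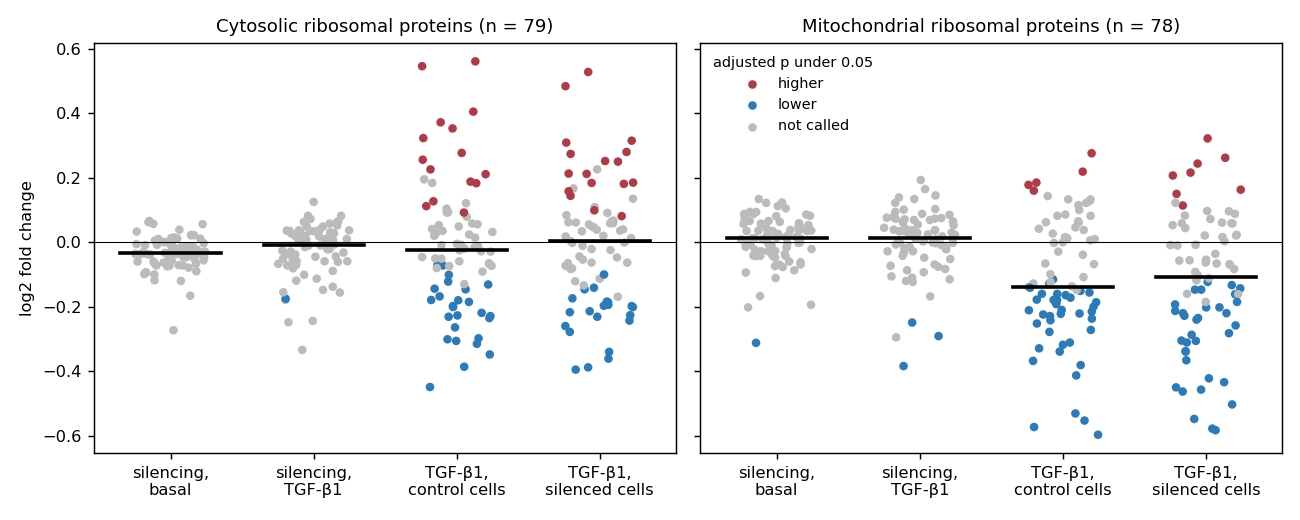
Fitted log2 fold change of each cytosolic (left) and mitochondrial (right) member in 4 contrasts; 1 point is 1 gene, coloured by its call at an adjusted p under 0.05, and thick lines are class medians. Points for silencing gather near 0, and most coloured points of the mitochondrial class under TGF-β1 lie below 0.

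Among cytosolic members lowered by TGF-β1, Rpl6 of the large subunit fell most in control cells. It was at 1597, 1661 and 1627 CPM in NC and 1210, 1140 and 1227 in NC+TGF-β1, then at 1606, 1604 and 1621 in KD and 1231, 1271 and 1259 in KD+TGF-β1. The log2 changes were -0.45 (SE 0.029, edgeR adjusted p = 8.86e-09) and -0.36 (SE 0.029, adjusted p = 8.79e-08), with no overlap between basal and TGF-β1 libraries. Rplp0, the base of the ribosomal stalk and a common reference gene in PCR assays, was at 4328, 4235 and 4497 CPM in NC and 3346, 3424 and 3224 in NC+TGF-β1, a log2 change of -0.39 (SE 0.030). In silenced cells it changed by -0.34, from 4395, 4237 and 4326 CPM to 3392, 3488 and 3357, so all 6 TGF-β1 libraries lay below all 6 basal ones.

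Rps15, next to the decoding site of the small subunit, was at 1024, 1051 and 1137 CPM in NC and 849.2, 823.4 and 850.9 in NC+TGF-β1, and it changed by -0.35 in control and -0.40 in silenced cells. Rps12, also of the small subunit, changed by -0.32 (-0.315 before rounding) and -0.24. Rpl36al, a close paralog of Rpl36a, changed by -0.30 and -0.39. The paralog Rpl36a, at 250.7 to 326 CPM over the 12 libraries, was called in neither contrast (-0.13 and -0.17), although reads shared by the pair may have been split between them.

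The stalk did not move as a unit. While Rplp0 fell, its partner Rplp2 rose from 456.4, 501.7 and 479.1 CPM in NC to 617.5, 632.5 and 652.8 in NC+TGF-β1, a log2 change of 0.41 (SE 0.048, edgeR adjusted p = 4.7e-06). In silenced cells it rose by 0.31, from 470.6, 416.8 and 473.4 CPM to 546.5, 557.7 and 581.1. Rplp1, the other acidic stalk protein, changed by -0.09 in control cells, which was not called (adjusted p = 0.245), and by -0.19 in silenced cells (adjusted p = 0.0236).

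Rpl38, whose loss in the mouse disturbs the translation of Hox mRNAs and the axial skeleton, showed the largest rise of the class. It was at 132, 140.1 and 138.4 CPM in NC and 209.4, 193.4 and 202.9 in NC+TGF-β1, a log2 change of 0.56 (SE 0.085, edgeR adjusted p = 5.04e-05). In silenced cells it went from 157.4, 133.5 and 122.7 to 189.7, 181.2 and 225.6 CPM, a change of 0.53, with no overlap. Rps19, mutated in Diamond-Blackfan anaemia, rose by 0.32 and 0.31 (0.323 and 0.315 before rounding) from 566.3 to 622.9 CPM in the 6 basal libraries to 710.7 to 748.9 in the 6 with TGF-β1. Rpl32l rose by 0.55 and 0.48 at 3.96 to 9.45 CPM in the 12 libraries, and similar Rpl32 rose by 0.21 and 0.21, so that shared reads cannot be told apart. The call of Rpl32l in silenced cells was lost without KD replicate 1 (adjusted p = 0.064) or KD+TGF-β1 replicate 1 (0.0558).

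Paralogs of one protein differed under TGF-β1. Rps27l, a p53 target, was at 134.5, 155.1 and 128.6 CPM in NC and 176.3, 188.1 and 176.7 in NC+TGF-β1, and rose by 0.37 in control and 0.25 in silenced cells. Its near twin Rps27 fell by 0.18 in control cells (edgeR adjusted p = 0.015) and changed by -0.11 in silenced cells (adjusted p = 0.102), and the split of shared reads between them is uncertain. Rpl39 rose by 0.26 and 0.28, while Rpl39l had 3 reads and Rpl10l 5 in all. Rpl3, Rpl7, Rpl10 and Rpl22 changed by -0.02, -0.08, -0.07 and 0.10 in control cells, of which Rpl10 alone was called (adjusted p = 0.0476). Rpl7l1 and Rpl22l1, whose symbols fall outside the rule, changed by 0.20 (called) and -0.04 (not called). Rps3a1, whose symbol ends in a digit and so also falls outside, held 310609 reads.

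Values are given next for well-known members. Rps6, the target of the S6 kinases, fell by 0.20 in control and 0.10 in silenced cells, from 1138 to 1192 CPM in basal to 1011 to 1093 CPM in TGF-β1 libraries. Rpl5 and Rpl11, which bind Mdm2 when ribosome assembly fails, changed by -0.26 and -0.10 in control cells (both called) and by -0.23 (called) and -0.07 (adjusted p = 0.119) in silenced cells. Rpsa, once named the laminin receptor, fell by 0.185 and 0.198. Rps14, lost in the human 5q deletion syndrome, changed by 0.11 (called) and 0.07 (adjusted p = 0.0955).

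In the mitochondrial class the largest falls were near 0.6 on the log2 scale. Mrps26, of the small subunit, was at 55.8, 61.8 and 59.8 CPM in NC and 40.8, 35.1 and 41.4 in NC+TGF-β1, then at 60.2, 59.0 and 64.9 in KD and 40.9, 41.3 and 41.1 in KD+TGF-β1. The log2 changes were -0.60 (SE 0.061, edgeR adjusted p = 1.03e-06) and -0.58 (SE 0.061, adjusted p = 1.27e-06). Mrpl14, at the interface of the subunits, was at 55.5, 59.5 and 61.6 CPM in NC and 39.4, 40.1 and 39.3 in NC+TGF-β1, with changes of -0.57 and -0.58. In both genes every TGF-β1 library lay below every basal library.

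Mrpl10 and Mrpl12 belong to the stalk of the mitochondrial ribosome. Mrpl10 was at 67.1, 70.2 and 74.0 CPM in NC and 49.2, 47.0 and 47.9 in NC+TGF-β1, and changed by -0.55 in control and -0.43 in silenced cells. Mrpl12, which also binds the mitochondrial RNA polymerase, was at 95.1 to 108.9 CPM in the 6 basal and 82.7 to 91.1 CPM in the 6 TGF-β1 libraries, with changes of -0.24 and -0.28 that were both called. Mrps34, mutated in human Leigh syndrome, changed by -0.53 and -0.46, from 52.6 to 58.9 CPM to 37.2 to 43.3 CPM. Mrpl42 changed by -0.37 and -0.50, and Mrpl55 by -0.22 and -0.55.

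A few mitochondrial members rose. Mrps31, of the small subunit, was at 16.2, 16.5 and 16.9 CPM in NC and 19.0, 22.0 and 19.1 in NC+TGF-β1, and rose by 0.28 (SE 0.070, edgeR adjusted p = 0.00341) and by 0.32 in silenced cells. Mrpl33, the most abundant member on the TPM scale, rose by 0.22 and 0.24, from 59.6 to 65.8 CPM in basal to 69.3 to 77.0 in TGF-β1 libraries. Mrps9 rose by 0.16 and 0.22. Mrps22 and Mrpl22 rose in control cells by 0.185 and 0.178 and changed by 0.09 and 0.10 in silenced cells (adjusted p = 0.252 and 0.136), and Mrps14 rose in silenced cells by 0.26 and changed by 0.09 in control cells (adjusted p = 0.223). The call of Mrps22 was lost without NC replicate 1 (0.0819) or NC+TGF-β1 replicate 2 (0.115).

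**Figure D4:**
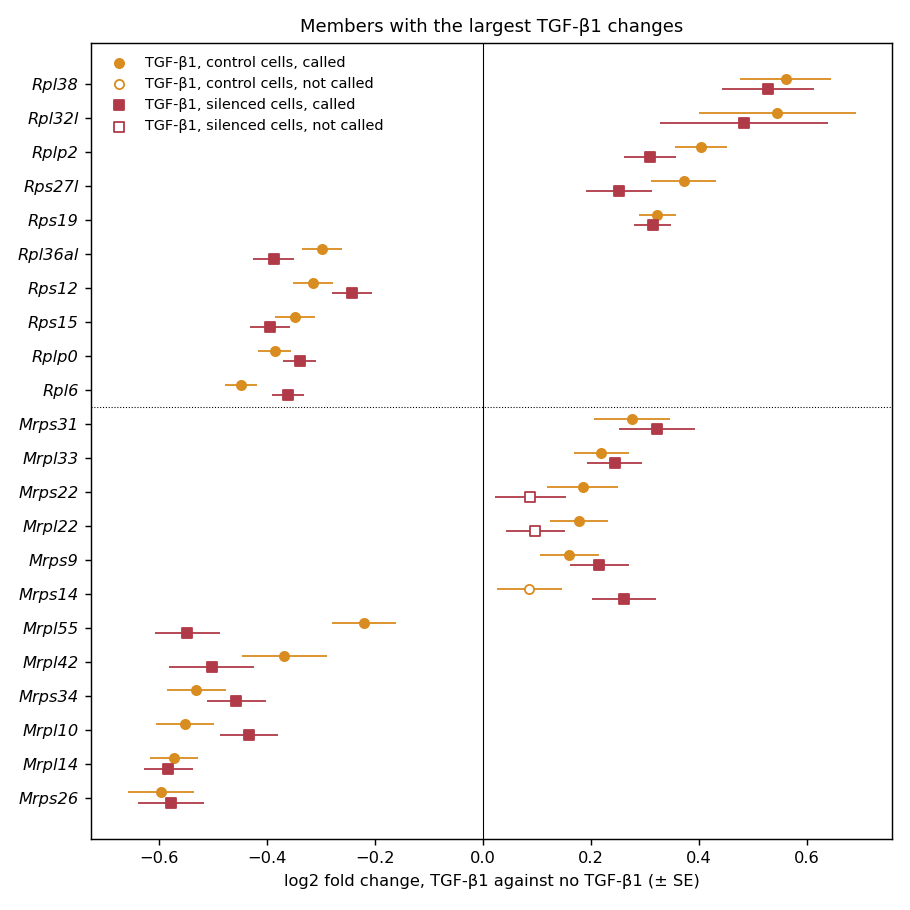
Log2 fold change with TGF-β1 (points, bars ± SE) in control cells (circles) and silenced cells (squares) for the members with the largest called changes, cytosolic above and mitochondrial below the dotted line; open symbols were not called. Mrps26 and Mrpl14 lie furthest to the left in both kinds of cells, at -0.60 to -0.57.

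Among mitochondrial subunits that carry other names, Dap3, Gadd45gip1, Ptcd3, and Chchd1 were called in no contrast, and Aurkaip1 fell with TGF-β1 by 0.15 and 0.23.

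Genes that serve the mitochondrial ribosome were mostly lower or not called with TGF-β1. Of 24 assembly factors 14 were lower and 1 higher in control cells, and 14 and 2 in silenced cells, with medians of -0.19 and -0.15. Of all genes, 34.7% were lower and 29.4% higher in control cells, and 33.7% and 31.4% in silenced cells, and these shares also stand beside the lists that follow. The assembly GTPase Mtg2 changed by -0.44 (SE 0.0587, edgeR adjusted p = 1.49e-05) and -0.62, and C1qbp, which binds mitochondrial ribosomes, by -0.22 and -0.18. Gtpbp10 changed by -0.27 in control cells and by -0.05 in silenced cells (adjusted p = 0.342). Of 20 factors of mitochondrial translation and transcription 12 were lower and 0 higher in control cells, and 12 lower and 1 higher in silenced cells, with medians of -0.23 and -0.18. Tfam, which packages mitochondrial DNA and is a factor of its transcription, was at 66.4, 65.0 and 68.7 CPM in NC and 50.4, 46.3 and 48.3 in NC+TGF-β1. It changed by -0.47 (SE 0.0435) and -0.39, the insertase Oxa1l by -0.37 and -0.35, and Gfm2, a ribosome recycling factor, by -0.48 and -0.65. Silencing called 0 of the 24 assembly factors in either setting, where 3.66% of all genes were called in basal cells and 11.4% with TGF-β1. Of the 20 factors of translation and transcription it called 0 in basal cells, and 1 higher and 1 lower with TGF-β1.

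Of the 8 tested regulators of mitochondrial biogenesis, 4 were higher and 1 lower in control cells, with Hcfc1 at 0.24 and Gabpb1, a partner of the ETS factor named above, at 0.25. In silenced cells 1 was higher (Hcfc1, 0.21) and 0 lower.

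Of 40 nucleolar ribosome biogenesis genes, TGF-β1 raised 8 and lowered 13 in control cells, where 29.4% of all genes were higher and 34.7% lower. In silenced cells it raised 9 and lowered 15, beside 31.4% and 33.7% of all genes. Ubtf, a factor of RNA polymerase I, rose by 0.32 and 0.34, while Noc2l and Rrp1b fell by 0.37 and 0.43 in control cells and by 0.36 and 0.44 in silenced cells. Silencing raised 2 of the 40 in basal cells, Tsr1 by 0.22 and Rrp12 by 0.25, and 4 with TGF-β1, among them Gnl3 by 0.21, Tsr1 by 0.18 and Heatr1 by 0.18, and lowered 0 in both settings. Of all genes, silencing raised 1.44% in basal cells and 5.42% with TGF-β1, and lowered 2.22% and 6.02%.

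A further list held translation factors and other genes of the TOP class. Of its 19 tested genes, TGF-β1 raised 3 and lowered 8 in control cells and raised 4 and lowered 6 in silenced cells. The shares of all genes were 29.4% and 34.7%, then 31.4% and 33.7%. Eef2, the translocase of elongation, fell by 0.32 and 0.21, and Hnrnpa1 rose by 0.29 and 0.26. Among 20 genes that control TOP mRNAs or ribosome gene expression, 4 were higher and 8 lower in control cells, 5 and 9 in silenced cells. Ddit4, an inhibitor of mTORC1, rose by 0.88 and 0.92, and Mxd4, a partner of Max that opposes Myc, by 1.08 and 1.16. Deptor, another inhibitor of mTOR, fell by 2.04 and 1.71, and Eif4ebp1, a translational repressor that mTORC1 inactivates, by 0.89 and 0.56.

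Values under TGF-β1 are given for members with and without the promoter motifs, with no test. They are from control cells, where 29.4% of all genes tested were higher and 34.7% lower. Of the 24 cytosolic genes with CCGGAAG 6 were higher and 9 lower in control cells, with a median of 0.01, against 6 and 15 of the 35 without it, with a median of -0.05. In the mitochondrial class 3 of 26 holders were higher and 14 lower, with a median of -0.16, against 2 and 22 of 43 others, with a median of -0.14. Of 37 cytosolic genes with a pyrimidine run 9 were higher and 13 lower, and of the 22 without 3 and 11, with medians of -0.02 and -0.09.

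A set of 4 seven-letter words, picked by an earlier analysis in the 3′ untranslated regions of genes lower in silenced cells of these data, was looked up as a description. The first word was TCTACAC and the second was CTACACA, the third was TTCTACA and the last was GACACCT, each read on the transcript strand. At least 1 of them occurred in 9 of 78 cytosolic and 15 of 78 mitochondrial members with an annotated region, 11.5% and 19.2%, and in 3402 of 11414 tested genes, 29.8%. Mrpl13 held CTACACA, and Mrps36, Mrpl55 and Rplp2 held none of the 4.

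Below the gene level, the deposited tables list estimated reads per transcript. In 46 members at least 2 transcripts had a mean of at least 50 reads, 112 transcripts in all. The 2 genes described next were chosen from them after their values were seen, so no test is given. Rps24 of the small subunit, on chromosome 14, has 3 matched RefSeq variants that differ by very short exons near the end of the reading frame. NM_207634 has neither, NM_011297 has the 20-base exon and NM_207635 has both. In build GRCm38 the 18-base exon lies at chr14:24494052-24494069 and the 20-base exon at chr14:24495430-24495449, both on the plus strand. The exons are shown because the reading frame ends after 133, 130 and 131 codons in the 3 variants.
Rps24 18-base exon: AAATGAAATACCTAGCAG
Rps24 20-base exon: TGAGTGGAGATTGGATACAG

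The share of the 3 variants that carries the 20-base exon was 12.0%, 12.6% and 13.8% in NC and 14.2%, 11.9% and 11.6% in KD. With TGF-β1 it was 24.4%, 21.6% and 22.8% in NC and 23.6%, 21.8% and 21.1% in KD. The basal and TGF-β1 groups lay far apart, and silenced and control libraries overlapped in both settings. The variant with both exons made up 2.03% ± 0.23 (SD, n = 3) in NC, 2.03% ± 0.52 in KD, 4.67% ± 0.7 in NC+TGF-β1 and 5.41% ± 0.45 in KD+TGF-β1. Rps24 as a whole was not called under TGF-β1 (-0.07, edgeR adjusted p = 0.328, and -0.13, adjusted p = 0.0515). A predicted transcript, XM_030247696, took 56.7% of the reads of the gene in NC and 50.1% in NC+TGF-β1, and its exons were not matched here, so the shares cover the 3 variants only.

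In Mrpl15, of the large mitochondrial subunit, the transcript NM_025300 took 13.3%, 15.5% and 15.1% of the estimated reads in NC and 27.3%, 25.7% and 21.5% in NC+TGF-β1. In KD it took 16.8%, 16.5% and 16.8%, and in KD+TGF-β1 21.2%, 23.5% and 20.8%, again above the basal libraries without overlap, while the gene as a whole changed by 0.00 (-0.002 before rounding) and -0.01 on the log2 scale.

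**Figure D5:**
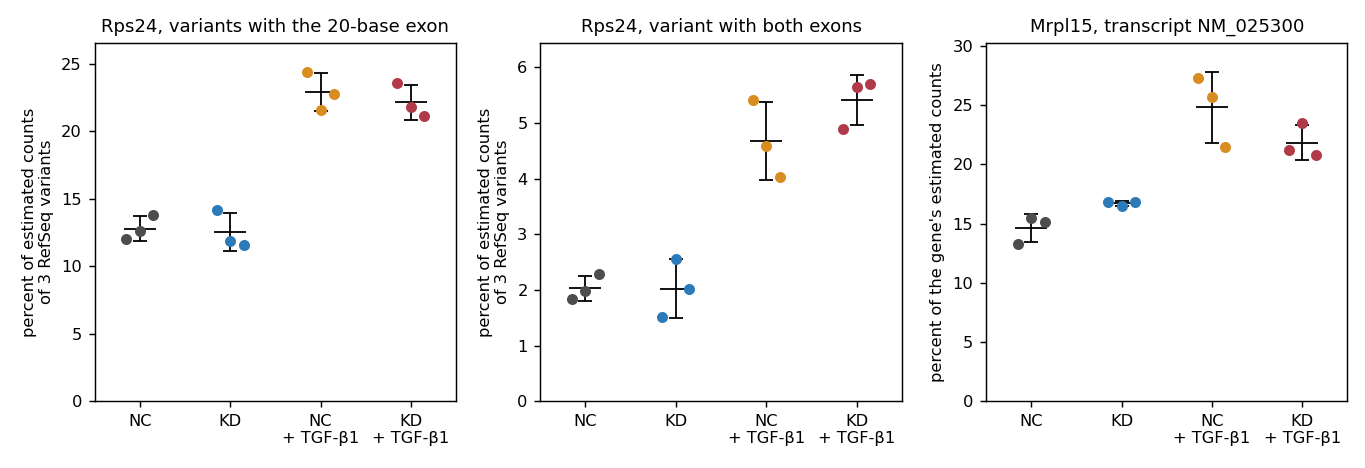
Share of estimated reads in each library (points), with group mean and SD (lines, n = 3), for the Rps24 variants with the 20-base exon, the Rps24 variant with both short exons, and the Mrpl15 transcript NM_025300. The first lies between 11.6% and 14.2% in basal and between 21.1% and 24.4% in TGF-β1 libraries.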

How the data were processed

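mRNA sequencing of 12 libraries (NC, KD, NC+TGF-β1, KD+TGF-β1, 3 each) was analysed. Per the file headers, the authors deposited estimated counts and TPM per transcript in 2 tables; RSEM 1.3.1 and DESeq2 1.34.0 are listed, with Bowtie2 and HISAT2 and no roles, per the submitters' processing notes, which give a human build for these mouse samples, so no coordinates were taken from the files. Estimated counts were summed per Entrez ID and rounded, and symbols came from RefSeq (GRCm38.p6; 15690 of 15802 IDs matched). The 24 columns of FPKM and normalized counts and 16 columns of group averages were not used. Totals of 17651213 to 18462872 reads limit precision by counting error as well as by the 3 libraries per group.

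In edgeR 4.0.16 (R 4.3.3), filterByExpr kept 11707 genes, TMM factors ran from 0.978 to 1.025, and glmQLFTest on 1 model of 4 groups (8 residual degrees of freedom) gave 5 contrasts, with Benjamini-Hochberg adjustment over all genes tested. The procedure was also run on simulated counts with known changes, and how many of these it recovered is not reported here. DESeq2 1.42.0, limma 3.58.1 on log2(TPM + 1) and the other alternatives of the closing section were run. Class sums, medians, motif shares and transcript shares have no test. Effective length was estimated counts per TPM, relative to the all-gene median. Transcript sequences and exons came from GENCODE vM21. Named with values were, per class and contrast, the 4 called members with the largest increases and the 4 with the largest decreases, the 3 highest and 3 lowest by TPM, listed paralogs and well-known members, and up to 3 called genes of each other list. Members, lists and words were chosen with earlier results of these data known. No label pairs same-numbered libraries, and their deviations from group means correlated at -0.097 to 0.073, so no pairing was used. Some results are not reported here.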

Additional observations from a re-analysis of the deposited data

Results flagged for a closer look

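Only Fh1, the members and the genes of the other lists were searched for a silencing change that differed between settings. Such a difference was called for 3 of them, none a member. Of all 11707 genes tested, the interaction called 104, or 0.888%. For Fh1 it was lower by 0.98 with TGF-β1 than in basal cells (interaction -0.98, edgeR adjusted p = 8.18e-06). In the list of genes that control TOP mRNAs, the interaction was 0.46 for Sesn2, an inhibitor of mTORC1 (adjusted p = 0.00567), and 0.33 for Eif4ebp1 (adjusted p = 0.0324). The settings come from separate tables.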

How the results depend on the processing

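There were 445 values under 8 alternative settings (other scalings, no low-count filter, DESeq2, limma on log2(TPM + 1), only the 2 groups compared, replicate block, summed TPM). Of these, 428 were kept, and 0 called values changed direction. For a gene, kept meant the same direction and side of the threshold. A count of calls was kept when equal or within 1.5-fold, and a median or sum when within its spread. Class medians near 0, which carry no call, could change sign. The cause of the rest was not tested. For silencing in basal cells, 0 mitochondrial members were called with only the 2 groups compared. For silencing with TGF-β1, DESeq2 called 2 cytosolic and 1 mitochondrial members, the fit to only the 2 groups 8 and 6, and limma 0 cytosolic members. Under TGF-β1 in control cells, the mitochondrial median was -0.11 with DESeq2 size factors and -0.11 with DESeq2, and the mitochondrial sum differed by -7.01% with DESeq2 size factors. Under TGF-β1 in silenced cells, the cytosolic median was -0.026 with limma, and summed TPM differed by -5.5% for the cytosolic and -9.98% for the mitochondrial class.

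Leaving out single libraries gave 0 to 1 cytosolic and 1 to 2 mitochondrial calls for silencing in basal cells (1 cytosolic without NC replicate 1, 2 mitochondrial without NC replicate 3), with medians from -0.055 to -0.002 and from 0.002 to 0.05. With TGF-β1, silencing gave 0 to 2 cytosolic and 1 to 3 mitochondrial calls. For TGF-β1 in control cells the cytosolic median ran from -0.059 to 0.021, above 0 without NC replicate 3, and the mitochondrial median from -0.145 to -0.092. The cytosolic median of the interaction ran from -0.012 to 0.051. Fh1 changed by -0.115 to -0.053 with TGF-β1 in control cells and was called without NC replicate 1 (edgeR adjusted p = 0.0496).

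Calls of Mrps36 and Mrpl55 with silencing were lost under DESeq2 (adjusted p = 0.137 and 0.0789), and that of Rplp2 under limma (0.0788). The replicate block, for numbers that do not pair the libraries, gave 1 cytosolic and 2 mitochondrial calls for silencing with TGF-β1 (Mrps36 lost, adjusted p = 0.0648), and 40 and 43 for TGF-β1 in control cells.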
